A study of Bos taurus with 6 samples.

Results

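Adipogenesis, the conversion of preadipocytes into fat-storing adipocytes, is driven by a cascade of CCAAT/enhancer binding proteins (C/EBPs). These transcription factors carry a basic region that contacts DNA and a leucine zipper (together the bZIP domain) through which they pair with each other or with other bZIP factors. *CEBPB* and *CEBPD* are induced first by hormonal stimuli, and their proteins activate *CEBPA* and *PPARG*, which then sustain the adipocyte program. The C/EBP genes were described here in bovine preadipocytes with and without extra *bta-miR-484*. They were the 5 genes listed under the symbols *CEBPA*, *CEBPB*, *CEBPD*, *CEBPG* and *CEBPZ*, of 23475 genes with a value.

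Cells from the subcutaneous fat of calves were transfected either with a *bta-miR-484* agomir, a modified RNA duplex that acts as extra copies of this miRNA, or with the agomir NC, a duplex used as negative control, here also called the control group. RNA was collected 48 h after transfection from 3 samples in each group, and all 6 samples came from *Bos taurus* cells grown in serum medium. Both groups were therefore transfected, and untransfected cells were not analysed here. The study took the fat from 3 calves, but the sources do not state if the samples within a group came from separate animals or cultures. The SD and the p-values therefore measure the spread between these samples, which may be technical. Expression was given as FPKM, fragments scaled by the length of the transcript and by all mapped fragments of the library, whose sum over genes lay between 365977 and 379361 in the 6 libraries. Since the depth is unknown, the counting error of these values could not be computed.

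The labels call the cells adipocytes, and the libraries held high levels of fibroblast and preadipocyte markers and low levels of mature adipocyte markers. *COL3A1*, a fibrillar collagen gene, stood at 7623 FPKM on average (log2 fold change of agomir over agomir NC -0.027 in limma, a linear model with a moderated two-sided test; -0.046 to -0.0060 with 1 library left out), and *DCN*, which encodes the matrix proteoglycan decorin, lay between 2840.4 and 2899 FPKM in the agomir libraries and between 2991 and 3248 FPKM in the control libraries (adjusted p = 0.376 in limma). *ZNF423*, a zinc finger gene of preadipocyte commitment, lay the other way, between 5.67 and 6.29 FPKM with the agomir and between 5.12 and 5.55 FPKM with the agomir NC (adjusted p = 0.516 in limma). *THY1*, a surface marker of fibroblasts, had a log2 fold change of -0.11 (adjusted p = 0.55 in limma; -0.19 to -0.074 with 1 library left out). Of the tested markers of this list, 3 had a log2 fold change above 0 and 6 below, and 2 of the 9, *DCN* and *ZNF423*, had groups apart, as did 17.2% of all genes tested. With quantile normalization, the log2 fold change of *DCN* was 0 up to rounding. That method gives genes of one rank the same value in each library, so this 0 is no check on the difference. How far the differences in these markers bear on the values below was not tested. Of 11 fibroblast and preadipocyte markers, 9 passed a filter on low values (an average of 0.5 FPKM or more across the libraries), *CD34* stayed below it, and *DLK1*, a preadipocyte marker in other systems, was listed at 0 throughout. Among the 5 markers of mature adipocytes, only *PLIN1*, which encodes a lipid droplet coat protein, passed the filter, at 1.23 FPKM, and the summed level of these markers ranged from 1.37 to 1.87 FPKM over the libraries. Markers of macrophages and leukocytes summed to between 7.71 and 9.08 FPKM, of which *CD14* made up 6.27, *CD68* 0.906 and *LAPTM5* 0.648 FPKM, and those of endothelium to between 3.77 and 4.54 FPKM, with *VWF* the most abundant and *TEK* at 0.585 FPKM. Of 4 smooth muscle and pericyte markers, *ACTA2*, the smooth muscle actin gene, was at 207 FPKM, while *MYH11*, *RGS5* and *DES* stayed below the filter. The myoblast genes *MYOD1* and *MYOG* were listed at 0, and *MYF5* at 0 in all libraries but one, where it was at 0.019 FPKM.

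None of the 5 C/EBP genes passed the test for a difference between the groups, and in each of them the agomir and control libraries overlapped. The 2 early factors were abundant, *CEBPD* at 174.8 FPKM and *CEBPB* at 118 FPKM on average, while *CEBPA* was low, at 0.535 FPKM. For *CEBPB*, *CEBPD* and *CEBPG* the 95% intervals of the fold change of FPKM + 0.5 stayed between 0.904 and 1.104. The interval of *CEBPA* spanned 0.860 to 1.74, and at its low level the added 0.5 FPKM understates the change. Its ratio of mean FPKM, agomir over agomir NC, was 1.44. All 5 genes passed the filter and were tested on log2(FPKM + 0.5) with limma, together with 12422 genes in all. *CEBPA* passed only through the agomir group, at 0.632 FPKM there and 0.438 FPKM in the control group. After Benjamini-Hochberg adjustment over these genes, 0 of the 5 were under 0.05, as against 0.00805% of all genes tested. At an unadjusted p under 0.05 in limma, it was again 0 of 5, against 10.9% of all genes tested. The groups were apart in 0 of the 5 genes, and in 17.2% of all genes tested. The median log2 fold change of the 5 genes was 0.027, with 3 above and 2 below 0, and that of all genes tested was 0.013.

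**Figure D1:**
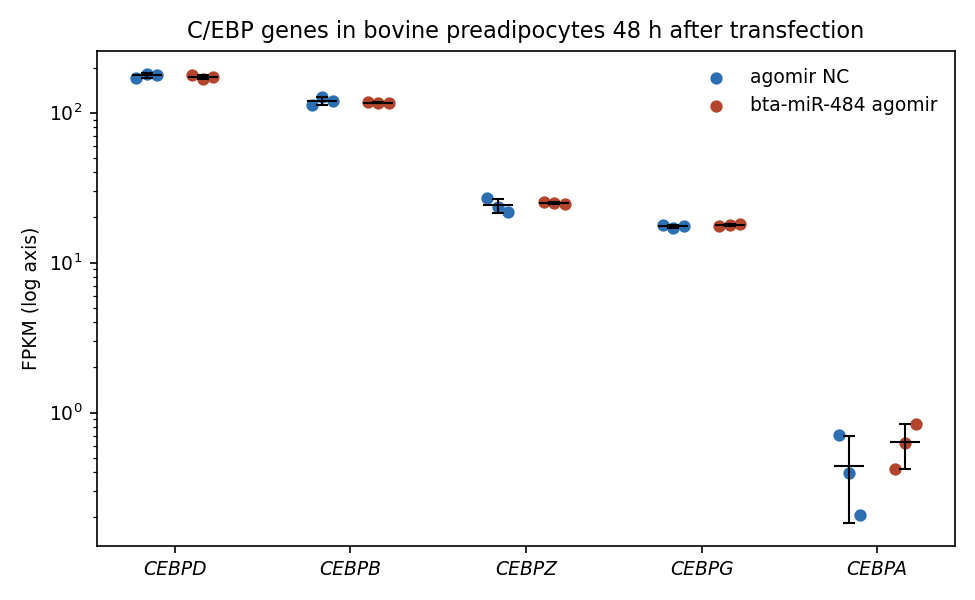
FPKM of the 5 C/EBP genes (log axis) in the 3 agomir NC libraries (blue) and the 3 *bta-miR-484* agomir libraries (red). Points are libraries in the order of their replicate numbers, horizontal bars are means and error bars the SD. *CEBPD* and *CEBPB* lie at 111.8 FPKM or more, *CEBPZ* and *CEBPG* between 16.9 and 26.9 FPKM, and *CEBPA* below 1 FPKM, with overlapping groups in each gene.

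*CEBPB* encodes C/EBPβ, which binds early in adipogenesis and whose single mRNA is translated into longer activating and shorter inhibitory forms that RNA levels do not separate. It reached 118, 117 and 116 FPKM in the agomir group, against 112, 127 and 119 FPKM in the control group. All 3 agomir libraries thus lay inside the range of the control libraries, which were the more scattered group. Mean and SD over 3 libraries each were 117 ± 1.12 and 119.5 ± 7.81 FPKM. Its log2 fold change was -0.033 (standard error (SE) 0.050, 95% interval -0.15 to 0.080), with an adjusted p of 0.856 in limma. The sign depended on 1 library, since the log2 fold change was 0.014 without agomir NC replicate 2. Without agomir NC replicate 1 it was -0.080, and quantile normalization gave -0.013.

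*CEBPD*, which encodes C/EBPδ, the partner of C/EBPβ in the early wave, was at 177, 168 and 172 FPKM with the agomir. In the agomir NC libraries it was at 171, 182 and 179.5 FPKM. The lowest value belonged to an agomir library and the highest to a control library, but the groups overlapped. Mean and SD over 3 libraries each were 172 ± 4.93 and 177 ± 5.88 FPKM, which gave a log2 fold change of -0.041 (SE 0.042, 95% interval -0.14 to 0.053, adjusted p = 0.768 in limma). With 1 library left out it ranged from -0.068 to -0.021, and quantile normalization gave -0.017. In level, *CEBPD* stood above 97.7% and *CEBPB* above 96.4% of all genes tested.

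*CEBPA* encodes C/EBPα, the late factor that maintains *PPARG* expression and insulin sensitivity in adipocytes, and is one of the differentiation markers that the study followed by qPCR. With the agomir, the study reported less *CEBPA* by qPCR in cells measured days after differentiation was induced. The libraries used here were collected 48 h after transfection, so the time and the method differ. In them, *CEBPA* reached 0.421, 0.631 and 0.845 FPKM in the agomir group, against 0.713, 0.395 and 0.208 FPKM in the control group. The highest value was in an agomir library and the lowest in a control library, and the others were interleaved. Mean and SD over 3 libraries each were 0.632 ± 0.212 and 0.438 ± 0.256 FPKM, and the log2 fold change was 0.29 (SE 0.23, 95% interval -0.22 to 0.80, adjusted p = 0.681 in limma). The exact two-sided permutation test over the 20 labelings of the libraries gave p = 0.4, where 0.1 is the smallest p that 3 against 3 can give. The log2 fold change moved to 0.51 with a pseudocount of 0.1 and to 0.19 with a pseudocount of 1. It was 0.10 without agomir NC replicate 3 and 0.43 without agomir replicate 1. The gene fell below the filter when the third agomir library or the first control library was left out. Only 0.813% of the genes tested had a lower mean, and 97.2% had a smaller SD within groups on the log2 scale. Its interval holds both rises and falls.

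The qPCR assay of *CEBPA* in the study used the following primers, whose match to a transcript was not analysed here; each has 20 bases, with a GC content of 50% in the forward and 55% in the reverse primer.
CEBPA forward: tggacaagaacagcaacgag
CEBPA reverse: ttgtcagtggtcagctccag

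*CEBPG* encodes C/EBPγ, which lacks a strong activation domain and works as a dimer partner, among others of ATF4 in the response to amino acid shortage. It reached 17.6, 17.8 and 17.96 FPKM in the agomir group, against 17.8, 16.9 and 17.5 FPKM in the control group, so that both groups kept to a narrow band. Only 2.58% of the genes tested had a smaller SD within groups on the log2 scale. Mean and SD over 3 libraries each were 17.8 ± 0.201 and 17.4 ± 0.458 FPKM, which gave a log2 fold change of 0.027 (SE 0.052, 95% interval -0.088 to 0.14, adjusted p = 0.891 in limma). With 1 library left out it ranged from 0.0073 to 0.044, and quantile normalization gave 0.0067.

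*CEBPZ* shares the family's name, but encodes a CCAAT box binding protein without a bZIP domain, related to a yeast factor of ribosome assembly. Its values were 25.5, 25.2 and 24.7 FPKM in the agomir group, against 26.9, 23.6 and 21.8 FPKM in the control group. Again the agomir libraries fell inside the range of the control libraries. Mean and SD over 3 libraries each were 25.1 ± 0.406 and 24.1 ± 2.60 FPKM, which gave a log2 fold change of 0.065 (SE 0.073, 95% interval -0.099 to 0.23, adjusted p = 0.788 in limma). Without agomir NC replicate 1 the log2 fold change was 0.146 (unadjusted p = 0.0379 and adjusted p = 0.409 in limma), and without agomir NC replicate 3 it was -0.0035, so its size and sign rested on single control libraries. In the RefSeq annotation of ARS-UCD2.0, *CEBPZ* overlaps the non-coding gene *CEBPZOS*, which was not analysed here. The strand setting of the quantification is not given in the sources used here, so reads from the shared stretch cannot be assigned.

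Exact two-sided permutation tests of the other members gave p = 0.7 for *CEBPB*, 0.3 for *CEBPD*, 0.3 for *CEBPG* and 0.6 for *CEBPZ* (n = 3 each). The spread of the agomir libraries was smaller than that of the control libraries in each of the 5 genes when taken as SD in FPKM, a description that was not tested. No share over all genes tested was computed for this count, so whether it is particular to the members is not known. *SOD2*, for one, shared it (14.6 against 51.4 FPKM, agomir first), while *IL6* did not (6.44 against 4.65 FPKM). The coefficient of variation was 0.957% against 6.53% for *CEBPB*, 1.62% against 10.8% for *CEBPZ*, and 33.5% against 58.3% for *CEBPA*, with the agomir first. For *CEBPD* it was 2.86% against 3.32%, and for *CEBPG* 1.13% against 2.63%.

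The order of the 5 levels in FPKM, which is per length, was the same in the 6 libraries, *CEBPD* first, then *CEBPB*, *CEBPZ*, *CEBPG* and *CEBPA*. Neighbors in this order were separated by more than their spread. *CEBPD* exceeded *CEBPB* by between 1.43 and 1.53 times within a library, and *CEBPB* exceeded *CEBPZ* by between 4.16 and 5.48 times. The closest pair was *CEBPZ* and *CEBPG*, 1.24 to 1.51 times apart, while *CEBPG* exceeded *CEBPA* by between 21.3 and 84.4 times. *CEBPA* and *CEBPG* are neighboring protein-coding genes on one chromosome in the RefSeq annotation of ARS-UCD2.0, and their levels were the most distant neighbors in the order.

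To see whether the balance between family members shifted, each level was divided by that of *CEBPB* in the same library, a measure that does not depend on scaling between libraries. On the log2 scale, *CEBPD* stood at 0.563 ± 0.0346 relative to *CEBPB* with the agomir and at 0.571 ± 0.0514 with the agomir NC (SD, n = 3 each). *CEBPG* stood at -2.71 ± 0.0301 and -2.77 ± 0.132, *CEBPZ* at -2.21 ± 0.0102 and -2.31 ± 0.225, and *CEBPA* at -7.58 ± 0.519 and -8.27 ± 0.939 (SD, n = 3 each). The differences of agomir minus agomir NC were -0.0078 for *CEBPD*, 0.061 for *CEBPG*, 0.10 for *CEBPZ* and 0.68 for *CEBPA*. The exact two-sided permutation p was between 0.4 and 0.8 for these 4 ratios, and 0.8 for each after Benjamini-Hochberg adjustment over them. With 1 library left out, the difference ranged from 0.23 to 1.17 for *CEBPA* and from 0.030 to 0.23 for *CEBPZ*. The upper end for *CEBPZ*, without agomir NC replicate 1, had an exact p of 0.1, the smallest possible, as did that for *CEBPG*, at 0.13. The direction turned for *CEBPG*, to -0.0066 without agomir NC replicate 2, and for *CEBPD*, to as much as 0.012, in 3 of 7 alternatives. Of the summed FPKM of the 4 bZIP members, *CEBPD* made up 56.1% ± 0.629 with the agomir and 56.4% ± 0.6005 with the agomir NC, *CEBPB* 37.95% ± 0.497 and 37.96% ± 0.968, and *CEBPA* 0.206% ± 0.0708 and 0.141% ± 0.0874 (SD, n = 3 each). That sum came to 307 ± 5.40 FPKM in the agomir group and to 315 ± 12.9 FPKM in the control group (SD, p = 0.5 in an exact permutation test, two-sided, with 3 libraries each). For the shares of the 4 genes, the exact two-sided permutation p lay between 0.4 and 1. In bulk RNA, fewer cells that express a gene and less RNA per cell cannot be told apart, which holds for each level given here.

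The genes whose profile over the 6 libraries came closest to that of a member were found by the root mean square difference of their centered log2(FPKM + 0.5) values, among 11251 other genes with a symbol. For *CEBPB* they were *SORBS3*, at a difference of 0.0079, and *TNFAIP2*, at 0.0095. For *CEBPD* they were *TKT*, at 0.0081, and *TK2*, at 0.0091. *CEBPG* was closest to *EDC4*, at 0.0097, and *GPI*, at 0.013, and *CEBPZ* to *ABR*, at 0.015, and *RBAK*, at 0.024. *CEBPA* had no profile as close, with *CBX5* at 0.118 and *GABRB2* at 0.121. As a measure of how little these profiles vary, a flat line lay at 0.027 from *CEBPG* and at 0.311 from *CEBPA*, and 129 and 4678 genes were at least as close as that.

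**Figure D2:**
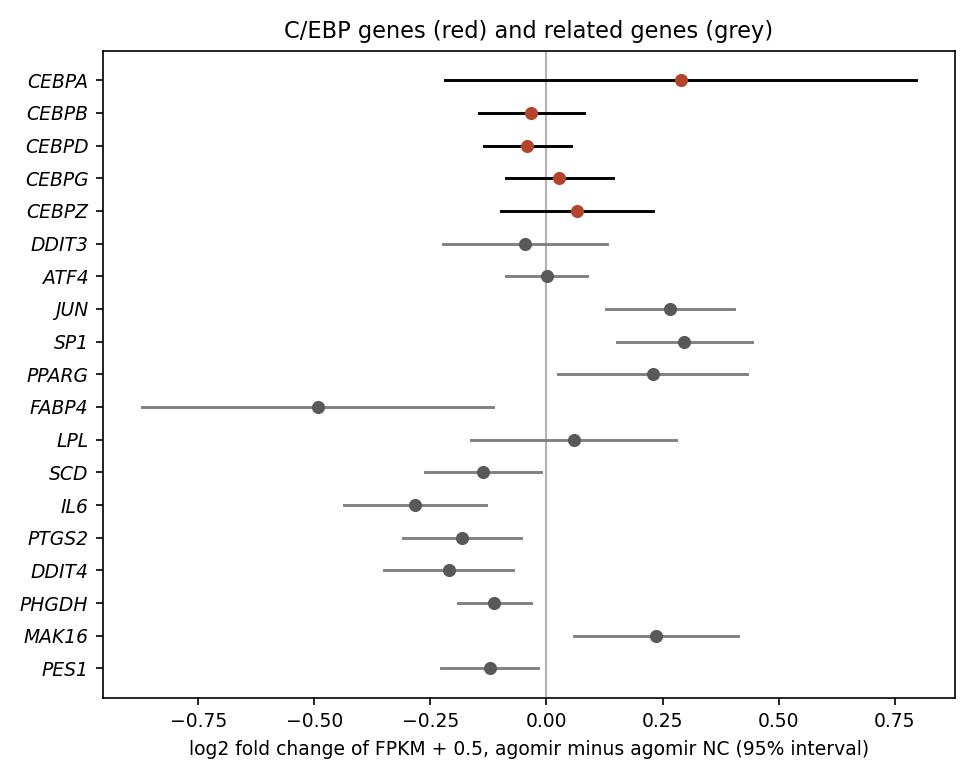
Log2 fold changes (agomir minus agomir NC, on FPKM + 0.5) of the C/EBP genes (red points) and of related genes (grey points), with 95% intervals from limma as lines. The intervals of the 5 C/EBP genes include 0, and that of *CEBPA* is the widest among them, from -0.22 to 0.80.

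Relatives of the members were examined next. *DDIT3*, which encodes CHOP, a C/EBP-like protein that pairs with C/EBPs and keeps them from their usual sites, was at 41.9, 38.7 and 38.9 FPKM in the agomir group, against 38.7, 38.1 and 47.0 FPKM in the control group. One control library lay above the others, and the groups overlapped. Its log2 fold change was -0.046 (SE 0.079, adjusted p = 0.878 in limma), and 0.051 without that library, agomir NC replicate 3. *CEBPE*, the family member of granulocyte development, was listed at 0 in the 6 libraries.

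Genes around the C/EBPs were taken from 9 lists of partners, regulators and targets, with 125 distinct genes beside the members, of which 112 passed the filter. With limma's p-values adjusted over all genes tested (Benjamini-Hochberg), 0 of the 112 were under 0.05. At an unadjusted p under 0.05 in limma, 10 were higher with the agomir, which is 8.93% of the 112 as against 6.63% of all genes tested, and 15 were lower, which is 13.4% as against 4.31%. These counts depended on single libraries, the variance model and the scaling. With 1 library left out, 6 to 10 list genes were higher and 7 to 16 lower, and 7 were higher and 9 lower without the variance trend. With median-ratio scaling 7 list genes were higher and 17 lower, as against 673 and 688 of all genes, and with quantile normalization 8 and 15, as against 696 and 629. The 15 lower include *HP*, which passed the filter only through the control group, at 0.742 FPKM there and 0.317 FPKM with the agomir. The median log2 fold change was -0.0029 over these genes and 0.013 over all genes tested. These lists were chosen with earlier results of these data known, so their shares are a description, and no test compares them with other genes.

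Among 20 other bZIP factors, 19 were tested. At an unadjusted p under 0.05, 4 were higher and 4 lower, as against 6.63% and 4.31% of all genes tested. After adjustment in limma it was 0, and the median log2 fold change was 0.0077. *ATF4*, the stress-response partner of C/EBPγ and the most abundant of the list, was between 217 and 229.96 FPKM in the 6 libraries, with a log2 fold change of 0.00061 (SE 0.039; -0.022 to 0.0195 with 1 library left out). *JUN*, a subunit of the AP-1 factor, was at 19.1, 20.04 and 18.4 FPKM in the agomir group, against 16.8, 15.0 and 15.9 FPKM in the control group. Each agomir library lay above each control library, with a log2 fold change of 0.27 (SE 0.062), but an adjusted p of 0.248 in limma. *JUND*, which encodes another AP-1 subunit, had a log2 fold change of 0.15 (adjusted p = 0.332 in limma). *FOS*, the gene of their AP-1 partner, chosen after its values were seen, lay the other way without overlap, at -0.21 (adjusted p = 0.393 in limma). *NFIL3*, whose product is a bZIP repressor, had one of -0.13 (adjusted p = 0.354 in limma).

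Of 19 inducers and kinases that act on C/EBP genes or proteins, 2 were higher and 0 lower at an unadjusted p under 0.05 in limma. This compares with 6.63% higher and 4.31% lower of all genes tested, and 0 passed adjustment. The median log2 fold change was 0.049. *SP1*, which encodes a general activator that binds GC-rich promoters, was at 10.1, 9.53 and 10.2 FPKM in the agomir group, against 7.89, 7.85 and 8.27 FPKM in the control group. The groups did not overlap, and the log2 fold change was 0.297 (SE 0.065, adjusted p = 0.218 in limma). *NR3C1*, the glucocorticoid receptor gene through which *CEBPD* is induced in culture, was between 33.7 and 37.7 FPKM, with a log2 fold change of 0.10 (adjusted p = 0.447 in limma). Its unadjusted p was 0.05 or more whichever library was left out. The same held with median-ratio scaling, quantile normalization, a replicate block, or no variance trend. *KLF4*, whose product activates *CEBPB*, was the most abundant at 65.9 FPKM, with a log2 fold change of 0.081 (adjusted p = 0.590 in limma; 0.053 to 0.13 with 1 library left out). *STAT5B* had one of 0.18 (adjusted p = 0.498 in limma; 0.11 to 0.24 with 1 library left out). Among 17 genes of C/EBP turnover, translation and cofactors, 1 was higher and 1 lower at an unadjusted p under 0.05, near the 6.63% and 4.31% of all genes tested. After adjustment in limma it was 0, and the median was 0.020. The higher gene was *MTOR*, a kinase gene of growth control, at 0.15, and the lower one *HDAC3*, a corepressor deacetylase gene, at -0.13 on the log2 scale (adjusted p = 0.447 and 0.398 in limma). *MTOR* lost its unadjusted p under 0.05 with median-ratio scaling, quantile normalization, a replicate block, and without single libraries of both groups. *HDAC3* lost it without agomir replicate 1 and without agomir NC replicate 2 or 3. *SMARCA4*, the gene of a chromatin remodeling ATPase, followed at 0.14 with overlapping groups (adjusted p = 0.477 in limma; 0.081 to 0.19 with 1 library left out). *CALR*, which encodes calreticulin, was the most abundant of them at 299.9 FPKM.

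Targets were divided by the process in which C/EBPs act. Of 18 adipocyte genes bound by C/EBPs, 12 passed the filter. At an unadjusted p under 0.05, 1 was higher and 2 lower, as against 6.63% and 4.31% of all genes tested. After adjustment in limma it was 0, and the median log2 fold change was -0.034. *PPARG*, the nuclear receptor gene downstream of C/EBPβ and C/EBPδ, was at 3.99, 3.69 and 3.91 FPKM in the agomir group, against 3.39, 3.34 and 2.96 FPKM in the control group. The groups did not overlap, with a log2 fold change of 0.23 (SE 0.090, 95% interval 0.026 to 0.43, adjusted p = 0.407 in limma). *PPARG* lost its unadjusted p under 0.05 without agomir replicate 1, agomir replicate 3 or agomir NC replicate 3. *FABP4*, a fatty acid binding protein gene downstream of *PPARG*, lost its unadjusted p under 0.05 without agomir replicate 3 or agomir NC replicate 1. This gene had a log2 fold change of -0.49 (adjusted p = 0.363 in limma; -0.64 to -0.35 with 1 library left out) with overlapping groups. *SCD*, the stearoyl-CoA desaturase gene and the most abundant of the list, had one of -0.14 (adjusted p = 0.422 in limma; -0.19 to -0.084 with 1 library left out). *LPL*, the lipoprotein lipase gene, was at 0.058 on the same scale (adjusted p = 0.873 in limma; -0.023 to 0.12 with 1 library left out). The 6 genes below the filter were *ADIPOQ*, *LEP*, *SLC2A4*, *CFD*, *DGAT2* and *CIDEC*.

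Of 15 inflammatory and acute phase genes bound by C/EBPβ or C/EBPδ, 11 were tested. At an unadjusted p under 0.05, 0 were higher and 4 lower with the agomir, as against 6.63% higher and 4.31% lower of all genes tested, and 0 passed adjustment in limma. The median log2 fold change was -0.086. *IL6*, a cytokine gene with a C/EBP site in its promoter, was at 76.0, 73.5 and 63.8 FPKM in the agomir group, against 83.6, 84.0 and 91.9 FPKM in the control group. Each agomir library lay below each control library, with a log2 fold change of -0.28 (SE 0.068, adjusted p = 0.257 in limma). *PTGS2*, the inducible cyclooxygenase gene, reached 48.2, 48.8 and 46.8 FPKM in the agomir group, against 51.3, 53.2 and 59.1 FPKM in the control group, again without overlap, with a log2 fold change of -0.18 (adjusted p = 0.333 in limma). *HP*, the haptoglobin gene, was below 1.1 FPKM in each library, with one of -0.63 and overlapping groups (adjusted p = 0.406 in limma). A pseudocount of 0.1 gave -1.14, one of 1 gave -0.41, and the gene fell below the filter without agomir NC replicate 2. The fourth of these genes, *M-SAA3.2*, a serum amyloid A gene named after its values were seen, had 0.427, 0.477 and 1.32 FPKM in the agomir group, and the control libraries lay between 1.16 and 1.29 FPKM, so its highest value was in an agomir library. Its log2 fold change was -0.55 (adjusted p = 0.443 in limma), and ranged from -0.86 to -0.37 with 1 library left out. Its unadjusted p was 0.05 or more in 9 of 14 alternatives. *SOD2*, which encodes the mitochondrial superoxide dismutase and was the most abundant at 478 FPKM, had one of -0.086 with overlapping groups (adjusted p = 0.686 in limma; -0.17 to -0.027 with 1 library left out). In the other direction, *PTX3*, the pentraxin 3 gene, chosen after its values were seen, lay between 22.6 and 23.9 FPKM with the agomir and between 18.9 and 22.4 FPKM with the agomir NC, without overlap, at 0.14 on the log2 scale (adjusted p = 0.477 in limma; 0.075 to 0.197 with 1 library left out). Of the 11 genes, 3 had a log2 fold change above 0 and 8 below. *LBP* and *LCN2* were listed at 0.

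The 18 genes of the amino acid and integrated stress response, in which ATF4, CHOP and C/EBPγ act together, were all tested. At an unadjusted p under 0.05, 1 was higher and 2 were lower, as against 6.63% and 4.31% of all genes tested, and 0 passed adjustment in limma. The median log2 fold change was -0.049, with 4 genes above 0 and 14 below. *DDIT4*, which encodes an inhibitor of mTOR signaling, was at 117, 123 and 125 FPKM in the agomir group, against 127, 147 and 149 FPKM in the control group. The groups did not overlap, with a log2 fold change of -0.21 (SE 0.062, adjusted p = 0.310 in limma). *PHGDH*, the gene of the first enzyme of serine synthesis, had one of -0.11, and *XBP1*, a bZIP factor gene of the unfolded protein response, one of 0.13 (adjusted p = 0.333 and 0.406 in limma), which was 0.077 without agomir NC replicate 2. *HSPA5*, an endoplasmic reticulum chaperone gene, was the most abundant at 464 FPKM, with a log2 fold change of -0.090 (adjusted p = 0.802 in limma; -0.197 to 0.012 with 1 library left out).

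For *CEBPZ*, the comparison was made with 14 genes of nucleolar ribosome assembly. At an unadjusted p under 0.05, 1 was higher and 1 lower, near the 6.63% and 4.31% of all genes tested. After adjustment in limma it was 0, and the median log2 fold change was 0.052. *MAK16*, an assembly factor gene of the large ribosomal subunit, had a log2 fold change of 0.24 (adjusted p = 0.354 in limma). *PES1*, another such gene and the most abundant at 25.8 FPKM, close to the level of *CEBPZ*, had one of -0.12 (adjusted p = 0.398 in limma). *BRIX1* had one of 0.12 (adjusted p = 0.509 in limma; 0.080 to 0.15 with 1 library left out). Of 5 other genes of CCAAT or Y-box binding proteins, 0 were higher and 1 was lower at an unadjusted p under 0.05, as against 6.63% and 4.31% of all genes tested. After adjustment in limma it was 0, and the median was 0.059. The lower gene was *YBX3*, at -0.11 (adjusted p = 0.40 in limma). The most abundant was *YBX1*, at 361 FPKM and a log2 fold change of -0.096, and *NFYA*, a subunit gene of the NF-Y factor, had one of 0.19 (adjusted p = 0.484 and 0.584 in limma). With 1 library left out, *YBX1* ranged from -0.12 to -0.061 and *NFYA* from 0.070 to 0.29, and quantile normalization gave -0.032 for *YBX1*.

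**Figure D3:**
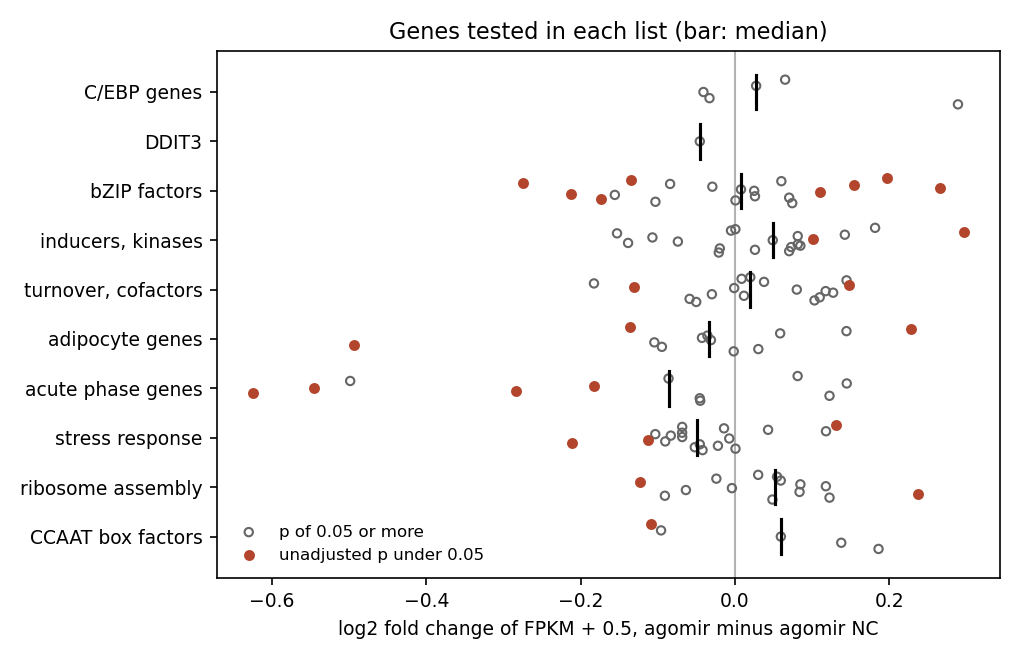
Log2 fold changes (agomir minus agomir NC, on FPKM + 0.5) of the genes tested in each list, 1 point per gene, with the median as a vertical bar. Filled points had an unadjusted p under 0.05 in limma, none of which is among the C/EBP genes, and the acute phase genes have the lowest median, at -0.086.

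For scale, *SFRP1*, a Wnt antagonist gene and the target that the study selected, had a log2 fold change of -0.51 (SE 0.088, 95% interval -0.71 to -0.31, adjusted p = 0.122) in the same limma fit. The intervals of *CEBPB*, *CEBPD*, *CEBPG* and *CEBPZ* contain no value of that size in either direction. No such comparison was made for *CEBPA*, whose fold change is understated at its level by the added 0.5 FPKM.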

How the data were processed

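The deposited table holds FPKM, 1 column for each of 6 libraries, which the authors normalized for transcript length and mapped fragments; fastp, HISAT2, StringTie and the build ARS-UCD1.2 are named in the submitters' processing notes without versions. The annotation and the strand setting were not given in the sources used here. Ratios between 2 libraries of 2158 low genes shared no step (at most 7 genes per bin of 0.002 in log2), so whole reads were not recovered.

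Values were put on the scale log2(FPKM + 0.5), with 0.5 as pseudocount, for the 12422 genes averaging 0.5 FPKM or more. This scale understates the change of low genes. Groups were compared with limma 3.58.1 in R 4.3.3 (variance trend, two-sided, Benjamini-Hochberg over all genes tested) and, for single values, by exact permutation. The median log2 fold change of all genes tested was 0.013. In simulated data for this comparison, 200 of 12422 genes, picked at random, were changed on the scale of FPKM + 0.5. Of changes of 1.5-fold, 63.5% passed an adjusted p of 0.05 in limma, and of changes of 2-fold, 90.5%. These shares are over genes of all levels, and none was computed for a low and scattered gene such as *CEBPA*.

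The members and gene lists were chosen with earlier results of these data known. From each list, the most abundant gene and up to 3 with the lowest p were named, plus some fixed by name; *FOS*, *PTX3* and *M-SAA3.2* were added later. The names in the RefSeq table of ARS-UCD2.0 gave the neighbors.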

Additional observations from a re-analysis of the deposited data

How the results depend on the processing

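The fit was repeated with a pseudocount of 0.1 or 1, without a filter or with one at 1 FPKM (which leaves out *CEBPA*), with quantile normalization or median-ratio scaling, with array weights, without a variance trend, with a replicate block, and without each library. For the lists and the genes named beside the members they were added after seeing the data. No C/EBP gene passed an adjusted p of 0.05 in limma in any of these, the lowest being 0.409. The count of all genes past it was 1 as reported, 0 without a filter, 0 without the variance trend, 0 with the block, and 0 to 2 when 1 library was left out. Then, 0 to 1 C/EBP genes had an unadjusted p under 0.05. With 1 library left out, log2 fold changes ranged from -0.080 to 0.014 for *CEBPB* and from -0.0035 to 0.146 for *CEBPZ*, and the log2 ratio to *CEBPB* differed by -0.037 to 0.012 for *CEBPD* and by -0.0066 to 0.13 for *CEBPG*. Of the list genes, 6 to 10 were then higher and 7 to 16 lower at an unadjusted p under 0.05, and 9 were lower without the variance trend. Of 684 values of 46 genes compared beside the members, 666 kept their direction and 67 (26 genes) moved by over 1.5 times without turning. None of these genes had a call at an adjusted p of 0.05, as reported or in an alternative. At an unadjusted p of 0.05, 16 of the 23 genes under it lost it in 68 values, and 10 others gained it in 15. The genes that changed direction were *ATF4*, at -0.015 with median-ratio scaling and -0.0016 with array weights, *VWF*, at -0.011 with median-ratio scaling and -0.0012 with quantile normalization, *CALR*, at 0.0052 with quantile normalization, *DCN* and *COL3A1*, which that normalization sets to 0 up to rounding (1.84e-16 and 7.64e-16), and, with 1 library left out, *ATF4* (-0.022 to 0.0195), *LPL* (-0.023 to 0.12), *HSPA5* (-0.197 to 0.012), *DDIT3* (-0.0995 to 0.051), *VWF* (-0.062 to 0.079), *TEK* (-0.073 to 0.010) and *CALR* (-0.11 to 0.0015). For *DCN* and *COL3A1* the 0 follows from the method, which gives genes of one rank the same value in each library. For the others the cause was not tested. Across genes, the deviations from the group means of libraries that share a number correlated at -0.051, 0.053 and 0.039. For libraries with different numbers, the correlations ranged from -0.109 to 0.072. With 3 libraries per group, these values cannot show whether libraries of one number share an animal, a culture or a batch. With the replicate block 738 genes were higher and 522 lower at an unadjusted p under 0.05 in limma, against 824 and 535 without it. For *CEBPA*, near 0.5 FPKM, the unknown depth limits any statement.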
